A study of Mus musculus with 6 samples.

Results

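The 10 genes described here are those of the KEAP1-NRF2 antioxidant response: Nfe2l2, which encodes NRF2, its repressor gene Keap1, and 8 target genes (Nqo1, Hmox1, Gclc, Gclm, Txnrd1, Srxn1, Gsr and G6pdx). They were taken by symbol from the 23396 genes of the deposited table, and all 10 were found and passed the filter on low counts. RNA came from frozen right kidneys of 6 male mice aged 6 months, sequenced as stranded total RNA after removal of ribosomal RNA. The Far2 knockout group held 3 mice homozygous for the targeted allele on the strain named C57BL/6N-Far2tm2a(KOMP)Wtsi/2J, and the wild-type group held 3 C57BL/6N mice. Far2 encodes a fatty acyl-CoA reductase, which makes fatty alcohols from fatty acyl-CoA. The labels name no treatment, no tissue restriction of the allele and no littermate relation between the groups. The comparison asks how kidney gene expression differed between the genotypes.

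NRF2 is a transcription factor that KEAP1, an adaptor of a CUL3 ubiquitin ligase, keeps at low abundance by marking it for degradation. Electrophiles and oxidants modify KEAP1, after which NRF2 accumulates, pairs with a small MAF protein and binds antioxidant response elements. Its targets make and recycle glutathione and thioredoxin, supply NADPH, reduce quinones and degrade heme. In kidney the pathway is known for limiting damage to the tubule after toxic or ischemic injury. Much of its control acts on NRF2 protein, which was not measured in these libraries.

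To show the element in these genes, the core letters TGACNNNGC were searched on both strands of the RefSeq promoter windows of GRCm38.p6, which run from 250 bases before each transcript start to 50 bases from it. Windows were found for 7 of the 10 genes (9 windows), and 5 genes had the letters in 1 window each. Of all 32851 windows in the table, 12.4% held them. Hmox1, Gclc and Gsr have no entry in the table. The matches are printed 5′ to 3′ along the gene's strand, with the matched letters in capitals. Those in Gclm, Txnrd1, Srxn1 and G6pdx lie on the opposite strand, so the core reads there as GCNNNGTCA.

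Nfe2l2: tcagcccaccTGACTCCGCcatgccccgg
Gclm: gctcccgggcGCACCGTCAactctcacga
Txnrd1: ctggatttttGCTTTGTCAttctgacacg
Srxn1: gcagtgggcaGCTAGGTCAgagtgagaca
G6pdx: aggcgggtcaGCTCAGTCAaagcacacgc

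The Nfe2l2 stretch is chr2:75704885-75704913 on the minus strand, with the first capital 240 bases before the RefSeq start. In Gclm, at chr3:122245413-122245441 on the plus strand, that distance was 134 bases. The Txnrd1 stretch, chr10:82859104-82859132 on the plus strand, came from 1 of its 3 windows and lay 92 bases before that start. In Srxn1, chr2:152105542-152105570 on the plus strand, the match began at base 29 of the transcript. The G6pdx match, chrX:74428919-74428947 on the minus strand, lay 57 bases before the start. The windows of Keap1 and Nqo1 and the other windows of Txnrd1 did not hold these letters. A match describes the letters only, and binding was not measured.

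Libraries carry the numbers used within each group of the deposited table, which are 0, 1 and 2. They held from 15261362 (knockout library 1) to 20631158 (wild-type library 1) fragments assigned to genes, and 14354 genes were tested. Levels are given as CPM, the count of a gene relative to the TMM-scaled total of its library. Counts of the 10 genes ranged from 368 to 5081 fragments per library, so that counting error alone was 1.40% to 5.21%. The confidence intervals below come from the edgeR fit and also reflect the spread between mice of a group. Markers of the kidney tubule were present in all libraries. The summed CPM of 10 proximal tubule genes was 16656 to 20596 in wild type and 18881 to 19228 in knockout, and that of 10 genes of the loop of Henle and distal nephron was 4924 to 5387 and 5180 to 5759. The mean was higher in knockout for 8 of the 10 proximal tubule genes, with a median log2 fold change of 0.073. It was higher for 7 of the 10 loop and distal genes, with a median of 0.051. Of all genes tested, 48.3% had a higher mean in knockout.

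Wild-type library 0 stood apart in injury and macrophage genes. The 12 tubular injury genes summed to 1620 CPM there, while libraries 1 and 2 of wild type had 815 and 826 CPM and the knockout libraries 805 to 925 CPM. The 10 macrophage genes found in the table, of 11 in the list, summed to 243 CPM there, to 127 and 124 CPM in wild-type libraries 1 and 2 and to 102 to 136 CPM in knockout. The 8 fibroblast and mural genes summed to 346 to 396 CPM in wild type, highest in library 0, and to 277 to 330 CPM in knockout, without overlap. All 8 had a lower mean in knockout. By edgeR 5 of them had an unadjusted p under 0.05, where 5.14% of all genes were lower at that p. All 10 tested macrophage genes and 8 of 10 tested injury genes also had a lower mean in knockout, 1 and 4 of them at that p. Of all genes, 48.3% had a higher mean in knockout. The wild-type means include library 0, whose injury and macrophage sums were the highest of all libraries. The 6 adipocyte genes summed to 28.8 to 41.5 CPM in wild type and to 41.1, 45.5 and 81.0 CPM in knockout, with knockout library 2 the highest. Most of the sum was Fabp4, at 27.5 to 35.0 CPM in wild type and 37.5 to 48.4 CPM in knockout. Ucp1 added 21.1 CPM in knockout library 2. All 5 that were tested had a higher mean in knockout. Their median log2 fold change, 1.03, was that of Adipoq, a gene at only 0.19 to 2.05 CPM. By edgeR 0 genes of these 4 lists passed an adjusted p under 0.05, none was at 0 in all libraries, and the part of these cells in the results below was not tested. In bulk tissue, fewer cells of a type and less RNA per cell cannot be told apart. The targeted gene, Far2, had 19 to 31 fragments in the knockout libraries and 22 to 40 in wild type. Its counts cover the whole gene and so leave the genotype labels unchecked.

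None of the 10 genes passed the threshold of the test used for a difference between genotypes. By edgeR's quasi-likelihood test, 0 of the 10 reached a Benjamini-Hochberg adjusted p under 0.05, as did 0.00% of all genes tested. DESeq2 called 0 of the 10 against 0.124% of all genes with an adjusted p, and limma-voom called 0 of the 10. At an unadjusted p under 0.05, edgeR counted 0 of the 10 against 8.31% of all genes (1193 of 14354). Without knockout library 2 that count of the 10 was 1 (Nqo1, unadjusted p = 0.0494 by edgeR), where 1028 of all 14514 genes tested were counted. Without knockout library 1 it was 0 of the 10, against 516 of 14607 genes. The groups overlapped for all 10 genes, while they did not overlap for 14.1% of all genes. The mean was higher in knockout for 7 of the 10, against 48.3% of all genes, and the median log2 fold change was 0.089, against −0.0066 over all genes. In the authors' deposited table the smallest q of the 10 was 0.857, for Nqo1, where 0.657% of the genes it tested had a q under 0.05.

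**Figure D1:**
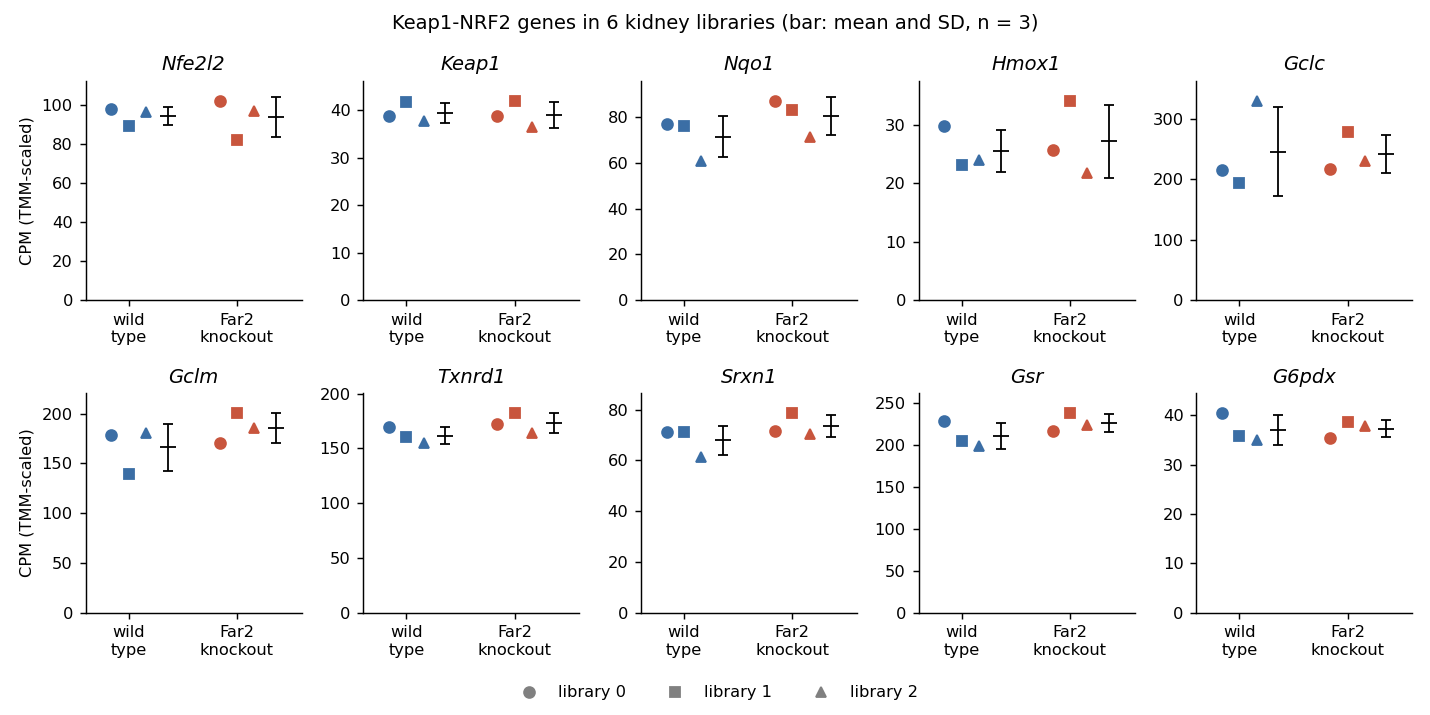
CPM (TMM-scaled, axis from 0) of the 10 genes in 3 wild-type (blue) and 3 Far2 knockout (red) kidney libraries; the marker shape gives the library number within a group, and the bar gives the mean and SD (n = 3). The groups overlapped in every panel, and the widest spread was that of Gclc, from 193 to 330 CPM in wild type.

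The regulator and its repressor had the same means in both groups to within a few percent. Nfe2l2 (ENSMUSG00000015839.6, GENCODE annotation of GRCm38, chr2:75675513-75704641, minus strand, up to 5 exons) was at 97.6, 88.9 and 96.0 CPM in wild-type libraries 0, 1 and 2 and at 102, 82.1 and 97.0 CPM in knockout. Knockout library 1 was the lowest of all 6, and the other 5 lay between 88.9 and 102 CPM. The wild-type mean was 94.2 ± 4.60 CPM and the knockout mean 93.7 ± 10.3 CPM (SD, n = 3 each). On the log2 scale the difference of knockout from wild type was −0.0064 ± 0.086 (SE; edgeR adjusted p = 0.988), and the 95% confidence interval spans 0.871 to 1.14 times the wild-type level. Without knockout library 1 the log2 fold change was 0.078 and without knockout library 0 it was −0.070.

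Keap1 (ENSMUSG00000003308.15, chr9:21229730-21239361, minus strand, up to 6 exons) was at 38.8, 41.8 and 37.8 CPM in wild type and at 38.8, 42.0 and 36.6 CPM in knockout. In both groups the library numbered 1 was the highest, and the ranges were almost the same. Its log2 fold change was −0.015 ± 0.082 (SE; edgeR adjusted p = 0.967), an interval of 0.871 to 1.12 times the wild-type level. The sign was positive on the FPKM scale, at 0.033 with a pseudocount of 1. The ratio of Nfe2l2 to Keap1, per transcript length in FPKM, was 3.55, 3.18 and 3.77 in wild type and 3.68, 2.74 and 3.76 in knockout. It was lowest in knockout library 1, and the groups overlapped.

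With all 6 libraries, Nqo1 had the largest log2 fold change of the 10 genes by edgeR. It did not without wild-type library 2, when Gclc (0.25) and Gclm (0.23) were above it. Nor did it without knockout library 0, when Nqo1 was at 0.11, below Gclm (0.22), Srxn1 (0.13), Gsr (0.13) and Hmox1 (0.12). Nqo1 encodes a quinone reductase that uses NADH or NADPH, and it is a standard readout of NRF2 activity (ENSMUSG00000003849.8, chr8:107388225-107403206, minus strand, up to 6 exons). It was at 76.9, 76.3 and 61.0 CPM in wild type and at 87.0, 83.2 and 71.2 CPM in knockout. Wild-type library 2 was the lowest, and 2 of 3 knockout libraries were above every wild-type library. The wild-type mean was 71.4 ± 9.01 CPM and the knockout mean 80.5 ± 8.24 CPM (SD, n = 3 each), a log2 fold change of 0.17 ± 0.11 (SE; edgeR adjusted p = 0.646). The interval runs from 0.955 to 1.33 times the wild-type level. Without wild-type library 2 this became 0.071 ± 0.096, and without knockout library 2 it became 0.25 ± 0.11.

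Hmox1 encodes heme oxygenase, which opens the heme ring and is also abundant in macrophages that take up red cells (ENSMUSG00000005413.8, chr8:75093621-75100589, plus strand, up to 5 exons). Its levels were 29.7, 23.1 and 23.9 CPM in wild type and 25.6, 34.0 and 21.8 CPM in knockout. Knockout library 1 was the highest and wild-type library 0 the next, and the other 4 lay between 21.8 and 25.6 CPM. Hmox1 had a log2 fold change of 0.081 ± 0.16 (SE; edgeR adjusted p = 0.891), an interval of 0.827 to 1.35 times the wild-type level. Without knockout library 1 it was −0.11, and without wild-type library 0 it was 0.21. Wild-type library 0 had the highest macrophage sum, given above. In knockout library 1 that sum was 136 CPM, against 102 and 133 CPM in the other knockout libraries, and the part of macrophages in the Hmox1 level was not tested. Hemoglobin and other erythroid genes, which near-identical copies make uncertain singly, summed to 178, 172 and 116 CPM in wild type and 188, 139 and 145 CPM in knockout, and their part in the Hmox1 level was not tested. These sums rest on the 5 of 8 listed genes found in the table.

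Gclc and Gclm encode the catalytic and the modifier subunit of glutamate-cysteine ligase, the enzyme of the first step of glutathione synthesis. Gclc (ENSMUSG00000032350.9, chr9:77754535-77794485, plus strand, up to 16 exons) was at 215, 193 and 330 CPM in wild type and at 218, 278 and 231 CPM in knockout. Wild-type library 2 was far above the other wild-type libraries, and knockout library 1 was the next highest. Wild-type libraries averaged 246 ± 73.3 CPM and knockout libraries 242 ± 31.8 CPM (SD, n = 3 each). In these groups, counting error was 1.49% and 1.56% of the mean and the SD 29.8% and 13.1%. Of the 1205 genes within 1 of the abundance of Gclc on the log2 CPM scale, 19 (1.58%) spread as widely or more in wild type. The SD of its log2 CPM there was 0.41, against a median of 0.086.

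For Gclc the log2 fold change was −0.022 ± 0.18 (SE; edgeR adjusted p = 0.980), an interval of 0.746 to 1.30 times the wild-type level. It rested on wild-type library 2. Without that library it was 0.25 ± 0.11 (SE; edgeR adjusted p = 0.647), and without wild-type library 1 it was −0.17. The proximal tubule sum was also highest in wild-type library 2, at 20596 CPM beside 16656 and 18451 CPM in wild-type libraries 0 and 1. Of those last 2, library 0 had the lower sum and the higher Gclc. In knockout libraries 0, 1 and 2 the sum was 19228, 18881 and 19048 CPM, lowest in library 1, where Gclc was highest of that group. The part of the proximal tubule in the Gclc level was not tested.

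Gclm (ENSMUSG00000028124.15, chr3:122245557-122270732, plus strand, up to 8 exons) was at 179, 139 and 181 CPM in wild type and at 171, 200.5 and 186 CPM in knockout. Wild-type library 1 was lowest, and knockout library 1 highest. Wild-type libraries averaged 166 ± 23.3 CPM and knockout libraries 186 ± 14.8 CPM (SD, n = 3 each), a log2 fold change of 0.16 ± 0.11 (SE; edgeR adjusted p = 0.663). The interval runs from 0.950 to 1.32 times the wild-type level. Without wild-type library 1 the log2 fold change was 0.052. Gclc stood at 0.555, 0.639 and 0.835 times Gclm in wild type and at 0.577, 0.643 and 0.574 in knockout, in FPKM. This ratio of catalytic to modifier subunit transcripts was highest in wild-type library 2 and otherwise lay within a narrow range that both groups shared.

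**Figure D2:**
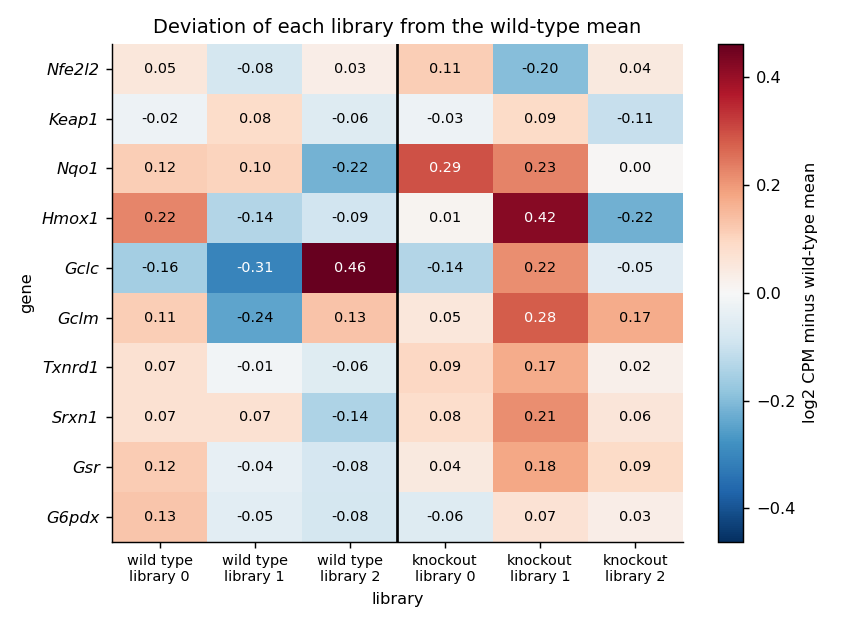
Log2 CPM (prior count 2) of the 10 genes (rows) in each library (columns) minus the mean of the 3 wild-type libraries; red is above and blue below that mean. Gclc in wild-type library 2 (0.46) and Hmox1 in knockout library 1 (0.42) deviated most.

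The enzymes of thioredoxin and glutathione reduction had small, similar log2 fold changes, and the interval of each spans no change. Txnrd1 encodes the cytosolic thioredoxin reductase (ENSMUSG00000020250.10, chr10:82833951-82897712, plus strand, up to 15 exons). It was at 169.9, 160.1 and 155 CPM in wild type and at 173, 182 and 164 CPM in knockout, so that the lowest knockout library lay inside the wild-type range. Its log2 fold change was 0.096 ± 0.067 (SE; edgeR adjusted p = 0.685). Txnrd1 shares its deposited locus with Eid3, on the same strand, whose counts were only 18 to 45 fragments per library.

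Srxn1 encodes sulfiredoxin, which restores overoxidized peroxiredoxins (ENSMUSG00000032802.8, chr2:152105516-152111376, plus strand, up to 2 exons). It was at 71.2, 71.1 and 61.3 CPM in wild type and at 71.7, 78.6 and 70.4 CPM in knockout. Wild-type library 2 was low and knockout library 1 high, and the other 4 lay between 70.4 and 71.7 CPM. The difference on the log2 scale was 0.11 ± 0.080 (SE; edgeR adjusted p = 0.684), and without wild-type library 2 it was 0.047.

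Gsr encodes glutathione reductase, which returns oxidized glutathione to its reduced form (ENSMUSG00000031584.16, chr8:33652523-33698163, plus strand, up to 13 exons). It was at 228, 204 and 199 CPM in wild type and at 217, 238 and 223 CPM in knockout. Wild-type library 0 was above 2 of the 3 knockout libraries. Gsr had a log2 fold change of 0.10 ± 0.074 (SE; edgeR adjusted p = 0.690), which was 0.16 ± 0.076 without wild-type library 0 (edgeR adjusted p = 0.459). The intervals of these 3 genes reach from 0.956 (Srxn1 and Gsr) to 1.23 (Srxn1) times the wild-type level.

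G6pdx encodes glucose-6-phosphate dehydrogenase, which makes NADPH at the entry of the pentose phosphate pathway (ENSMUSG00000031400.10, chrX:74409483-74429194, minus strand, up to 13 exons). It was at 40.4, 35.7 and 34.9 CPM in wild type and at 35.4, 38.7 and 37.7 CPM in knockout. Wild-type library 0 was the highest, and the knockout libraries lay inside the wild-type range. G6pdx had a log2 fold change of 0.0093 ± 0.084 (SE; edgeR adjusted p = 0.981), an interval of 0.883 to 1.15 times the wild-type level, and its sign was negative with upper-quartile scaling (−0.0063). Its deposited locus is shared with Ikbkg, on the opposite strand, which was at 51.9 to 57.0 CPM over the 6 libraries. The retrogene copy G6pd2 had 0 fragments in all libraries.

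**Figure D3:**
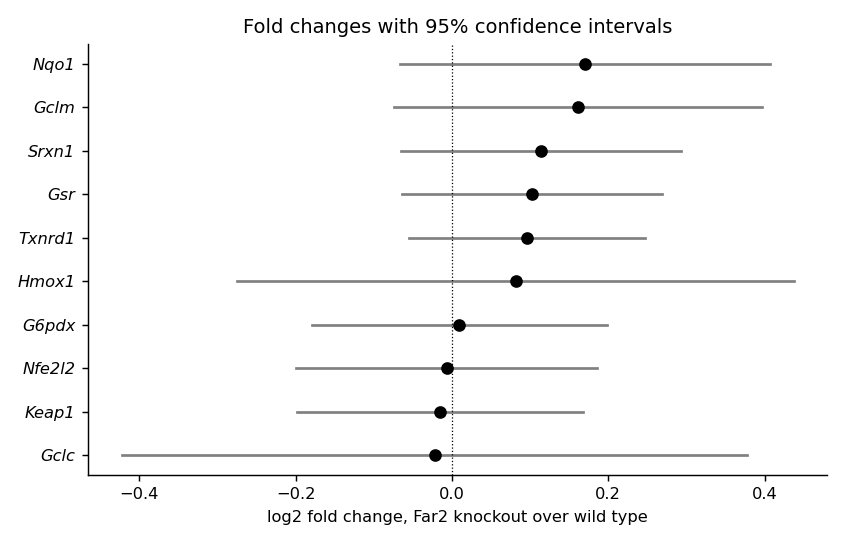
Log2 fold change of Far2 knockout over wild type (points) with 95% confidence intervals (lines) from edgeR for the 10 genes, ordered by fold change. Every interval spans 0, from the widest of Gclc (−0.42 to 0.38) to the narrowest of Txnrd1 (−0.055 to 0.25).

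Single libraries stood at the end of the range for several genes at once. Knockout library 1 was the highest of all 6 for 6 genes (Keap1, Hmox1, Gclm, Txnrd1, Srxn1 and Gsr) and the lowest for Nfe2l2, and it was the highest for 20.9% of all genes tested. Wild-type library 2 was the lowest for 5 genes (Nqo1, Txnrd1, Srxn1, Gsr and G6pdx) and the highest for Gclc, and it was the lowest for 16.2% of all genes. Wild-type library 0, with its high injury markers, was the highest for G6pdx and the lowest for 0 of the 10. Without knockout library 1 the mean was higher in knockout for 6 of 10 genes with a median log2 fold change of 0.060. Without wild-type library 2 these values were 8 of 10 and 0.055, without wild-type library 1 they were 7 of 10 and 0.042, and without wild-type library 0 they were 8 of 10 and 0.14. The 10 genes share their libraries, so these counts are not independent results.

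Compared per transcript length, the glutathione enzymes were the most abundant and the repressor the least. Gclm averaged 108 FPKM, a level scaled by transcript length and library size, over the 6 libraries, with a range of 86.6 to 120.2 FPKM. Gsr followed at 91.3 FPKM (range 79.7 to 98.7), and it was below Gclm in all 6 libraries although the ranges overlapped. Gclc averaged 68.5 FPKM (range 55.3 to 89.1) and was below Gsr in 5 of 6 libraries, the exception being wild-type library 2. Nqo1 at 51.2 FPKM and Txnrd1 at 47.8 FPKM overlapped, with Nqo1 higher in 5 of 6 libraries. Nfe2l2 at 36.2 FPKM was below Txnrd1 and above Srxn1 (23.3 FPKM) without overlap. Hmox1 at 14.6 FPKM was below Srxn1 without overlap, and its range overlapped that of G6pdx at 11.5 FPKM. Keap1 was lowest at 10.6 FPKM, below G6pdx in 6 of 6 libraries with overlapping ranges.

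**Figure D4:**
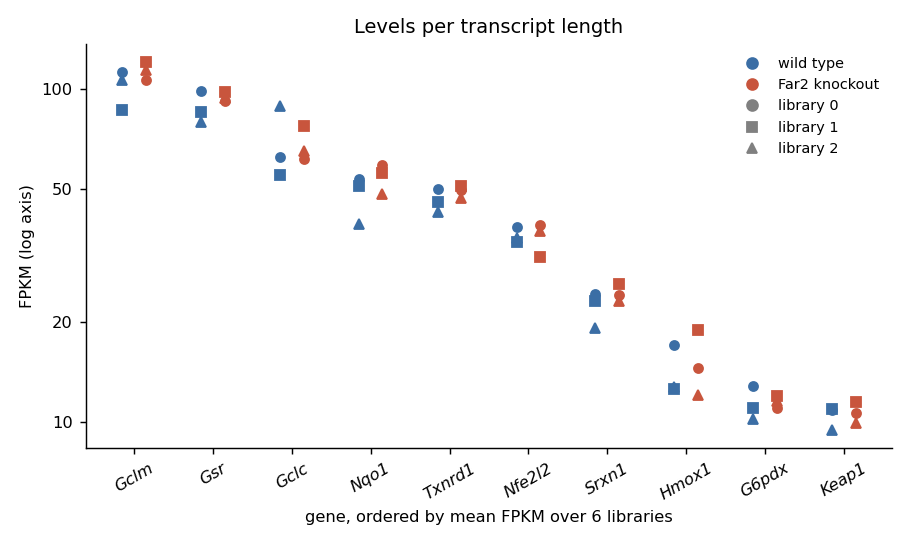
Deposited FPKM (log axis) of the 10 genes in each library, ordered by the mean over the 6 libraries, with wild type in blue and Far2 knockout in red. Levels run from 120.2 FPKM (Gclm, knockout library 1) to 9.49 FPKM (Keap1, wild-type library 2), and within each gene the blue and red points overlap.

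The wider pathway was read from 5 further lists, none of which had a member past the threshold in either direction by edgeR. Genes of a list share the 6 libraries, so the counts within it are not independent results. Of all genes tested, 48.3% had a higher mean in knockout. Of 13 partners and regulators of NRF2, 9 had a higher mean in knockout, and the median log2 fold change was 0.018. The 3 with the smallest p were Bach2, a transcriptional repressor that pairs with small MAF proteins, Cul3, the scaffold of the KEAP1 ligase, and Mafk, a small MAF partner of NRF2. Their log2 fold changes were −0.26 ± 0.14 (SE) for Bach2, 0.11 ± 0.064 for Cul3 and 0.18 ± 0.12 for Mafk (edgeR adjusted p = 0.613, 0.634 and 0.667). Bach2 was at 6.85, 6.36 and 6.23 CPM in wild type and at 4.67, 5.32 and 6.20 CPM in knockout. It was the only gene of this list whose groups did not overlap, with 1 of 13 lower against 6.96% of all genes. Leaving out wild-type library 1 or 2 gave this list a median of 0.059 or 0.0088, and leaving out knockout library 0 or 2 gave 0.039 or 0.030.

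Of 34 other NRF2 target genes, 30 were tested, since Slc7a11, Gpx2, Gsta1 and Gstm3 fell below the filter. The mean was higher in knockout for 16 and lower for 14, with a median log2 fold change of 0.016. That median became 0.052 or 0.030 when wild-type library 0 or 2 was left out, and 0.032 or 0.054 when knockout library 1 or 2 was. Among the 30, 2 had an unadjusted p under 0.05 and were higher (3.17% of all genes were) and 1 was lower (5.14% of all genes were). Taldo1, transaldolase of the pentose phosphate pathway, was at 192, 187 and 188 CPM in wild type and at 201, 219 and 216 CPM in knockout. Gstp1, a glutathione transferase, was at 58.3, 50.7 and 46.7 CPM in wild type and at 58.9, 62.4 and 61.0 CPM in knockout, and its close copies make its count less certain. Both were higher in each knockout library than in any wild-type library, with log2 fold changes of 0.17 and 0.23. The edgeR adjusted p of both was 0.599. In the whole list the groups did not overlap for 3 of 30, all higher, where 7.12% of all genes were so. Abcc4, an exporter of organic anions, was at 60.7, 87.1 and 57.5 CPM in wild type and at 63.3, 44.9 and 49.3 CPM in knockout. Its groups overlapped, and its log2 fold change was −0.38 ± 0.17 (SE; edgeR adjusted p = 0.599).

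Of 27 antioxidant enzymes and thioredoxin- or glutathione-related genes outside the classic target set, 21 had a higher mean in knockout (48.3% of all genes). The median log2 fold change of the 27 was 0.090. An unadjusted p under 0.05 was reached by 5, all of them higher, where 3.17% of all genes were so. The groups did not overlap for 6, all higher, where 7.12% of all genes were so. Txnip, which binds and inhibits thioredoxin and so is not itself an antioxidant enzyme, was at 576, 601 and 546 CPM in wild type and at 794, 671 and 654 CPM in knockout. Msra, which repairs oxidized methionine, was at 259.6, 237 and 246 CPM in wild type and at 283, 309.9 and 276 CPM in knockout. Both were higher in each knockout library than in any wild-type library. Their log2 fold changes were 0.30 ± 0.090 (SE) and 0.23 ± 0.072. Glrx3, a glutaredoxin, had a log2 fold change of 0.29 ± 0.11 (SE), and its groups overlapped. The edgeR adjusted p of each of these 3 was 0.599.

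Of 12 tested genes linked to NADPH supply, outside the pentose phosphate genes of the target lists, 11 had a higher mean in knockout. Of all genes, 48.3% did. The median log2 fold change of the 12 was 0.10 (0.064 without knockout library 0). The exception was Pgls (−0.0055), a pentose phosphate enzyme that itself makes no NADPH. The 3 with the smallest p were Aldh1l1, a folate enzyme that makes NADPH, Nadk, the kinase that makes NADP, and Me3, a mitochondrial malic enzyme. Aldh1l1 was at 594, 663 and 602 CPM in wild type and at 722, 702 and 683 CPM in knockout, with a log2 fold change of 0.18 ± 0.074 (SE; edgeR adjusted p = 0.599). The groups did not overlap for 2 of the 12, Aldh1l1 and Me3, both higher, where 7.12% of all genes were so. Nadk had a log2 fold change of 0.16 ± 0.090 (SE) and Me3 of 0.13 ± 0.075.

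Of 15 tested genes of heme and iron handling, 10 had a higher mean in knockout, with a median log2 fold change of 0.050. Omitting wild-type library 1 or 2 lowered it to 0.034 or 0.013, and omitting knockout library 2 to 0.024. Lrp1, a receptor that takes up heme bound to hemopexin among many ligands, was at 68.6, 105.9 and 95.5 CPM in wild type and at 69.1, 67.3 and 74.8 CPM in knockout. Wild-type library 0 lay within the knockout range and the other wild-type libraries above it, with a log2 fold change of −0.35 ± 0.14 (SE; edgeR adjusted p = 0.599). Blvra, the biliverdin reductase that acts after heme oxygenase, had a log2 fold change of 0.14 ± 0.075 (SE). Tfrc, the transferrin receptor, had one of 0.23 ± 0.15, and the groups overlapped for both.

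**Figure D5:**
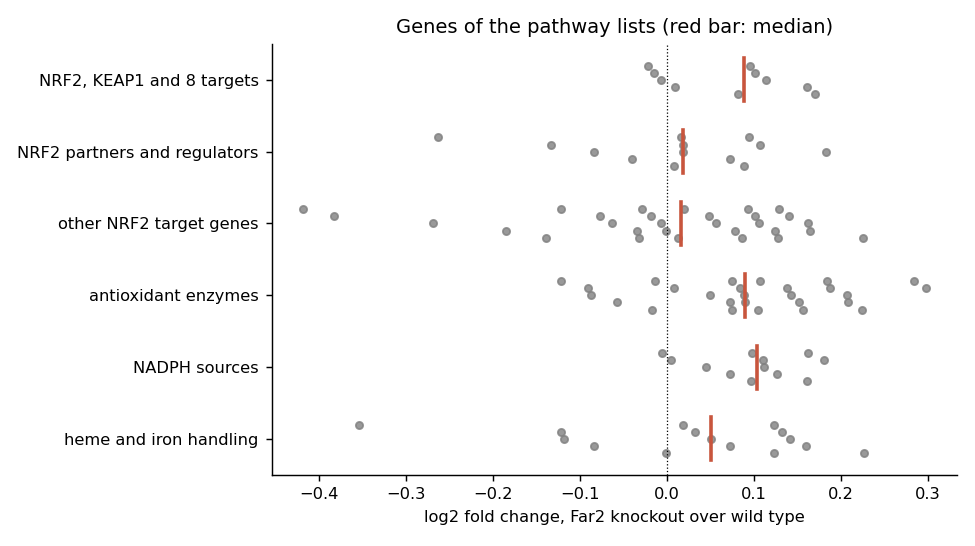
Log2 fold change of Far2 knockout over wild type for each tested gene (grey points) of the 10 KEAP1-NRF2 genes and 5 further lists, with the median of each list as a red bar; the vertical offset of points only separates them. Medians lie between 0.016 and 0.10, and 0 of the points shown passed edgeR's adjusted threshold.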

How the data were processed

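Per gene and library, the authors deposited FPKM and an estimated count, of fragments, which is whole except for 1.12% of values. A further deposited table holds, per the file headers, the comparison by the authors as log2 values, with a p-value and q-value per gene. Tools in the submitters' processing notes, listed with no role, are Cufflinks 2.2.1, Cuffdiff, Bowtie2 2.2.3, TopHat2 2.0.13, SAMtools 1.2 and cutadapt 1.2.1, and the build is mm10. How strand, gene models and multiple alignments were handled is not given in the sources used here, so overlapping or duplicated genes are uncertain.

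Library numbers match no sample label, so each library is 1 unnamed mouse of its group. Libraries of a group differed by 5.99 to 23.3 times counting variance. After rounding, the filterByExpr filter and TMM scaling, the groups were compared without covariates by the two-sided quasi-likelihood F test of edgeR 4.0.16 in R 4.3.3, with Benjamini-Hochberg adjustment over all genes. The procedure was also run on simulated counts with no outlier library, and no result above rests on that run. Standard errors are the log2 fold change over the root of F. Alternatives were RLE and upper-quartile scaling, other filters, DESeq2 1.42.0, limma-voom (limma 3.58.1), limma on log2(FPKM + 1) or log2(FPKM + 0.1), an adjusted p under 0.10, and leaving out each library. Promoter letters were searched in Python 3.11.15.

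The 10 genes and all lists were chosen with earlier results of these data known. The rule named all 10 genes and, of each further list without a called gene, the 3 with the smallest p. Tkt, also without overlap between groups in the target list, and other members are in the counts only.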

Additional observations from a re-analysis of the deposited data

How the results depend on the processing

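None of the 10 genes passed an adjusted p under 0.05 under any of the 14 alternatives run, nor an adjusted p under 0.10 by edgeR. Nqo1, Gclm, Txnrd1, Srxn1 and Gsr kept a higher mean in knockout under all 14. The number of genes of the whole table past the threshold was 0, and it was 14 by DESeq2, 1 with no filter on low counts, 1 at an adjusted p under 0.10 and 0 to 1 with a library left out. The sign of genes near 0 turned. Gclc was 0.0087 by limma-voom, 0.0041 on log2(FPKM + 1) and 0.0044 on log2(FPKM + 0.1). Keap1 was 0.033 and 0.036 on these FPKM scales, and G6pdx was −0.0063 with upper-quartile scaling. With a library left out, log2 fold changes ranged from −0.17 to 0.25 for Gclc, −0.11 to 0.22 for Hmox1, −0.070 to 0.078 for Nfe2l2, −0.069 to 0.034 for Keap1 and −0.030 to 0.078 for G6pdx. The median of the heme and iron list ranged from 0.013 (without wild-type library 2) to 0.065, that of the partners and regulators from 0.0088 to 0.059, that of the other targets from 0.018 to 0.054 and that of the 10 genes from 0.042 to 0.14. The cause of these shifts was not tested. No paired analysis was possible because the labels give mouse numbers that the groups do not share. With 3 mice per group, the intervals of the 10 genes reach from 0.746 (Gclc) to 1.35 (Hmox1) times the wild-type level.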
